A study of Mus musculus with 4 samples.

Results

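Chemokines are small secreted proteins that direct leukocyte migration by binding G protein-coupled receptors, and they are grouped as CC, CXC and C chemokines by the spacing of their cysteines. ILC2s, the group 2 innate lymphoid cells, lack antigen receptors, reside in tissues and are known for making IL-5 and IL-13. Activated lymphocytes also transcribe chemokines, which recruit other leukocytes or act on their own kind. The genes described here are 10 chemokine ligand genes that activated lymphocytes can express: Ccl1, Ccl3, Ccl4, Ccl5, Ccl17, Ccl22, Cxcl2, Cxcl3, Cxcl10 and Xcl1. They were chosen by symbol, and all 10 were present among the 27179 gene identifiers of the count table. Colonic ILC2s had been sorted from 2 C57BL/6J mice fed a high-fiber diet, called high-fiber mice here, and from 2 C57BL/6J mice fed a control diet, called control mice. A bulk RNA-seq library was made from the cells of each mouse. The labels give neither the sort gates, the number of cells, the kind of fiber, the time on the diet nor the age of the mice, and no genotype other than the strain.

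Counts per library summed to between 20253987 and 30406730, and 12685 to 13399 genes had a count. Levels are given as CPM, the TMM-scaled counts per 1e6 counts of a library, and a gene with 0 counts may hold up to 3 counts, which is 0.0993 to 0.147 CPM depending on the library. The first principal component of the log2 CPM held 45.8% of the variance and gave scores of -10.0 and 116 for high-fiber mice 1 and 2, against -59.3 and -46.7 for control mice 1 and 2, so that the second high-fiber mouse stood apart. All 12 genes of an ILC2 list had counts in every library, with summed levels of 14552 and 12205 CPM in high-fiber mice and 12077 and 10383 CPM in control mice. Il5 alone held 5889 and 3799 CPM of these sums in high-fiber mice and 3043 and 2559 CPM in control mice. Of the 12 genes, 10 had a positive and 2 a negative log2 fold change. All 7 genes of a neutrophil list had 0 counts in every library. In a T cell list Cd8a, Cd8b1 and Cd5 had 0 counts in every library, and Cd4 had 12 counts in high-fiber library 1 alone. Cd3d, Cd3e, Cd3g, Themis and the T cell receptor constant genes Trac, Trbc1 and Trbc2 had counts in each. Trac was at 4.16 and 10.6 CPM in high-fiber mice and at 14.9 and 9.67 CPM in control mice. A list of 15 genes of macrophages, monocytes and dendritic cells summed to 266 and 295 CPM in high-fiber mice and to 232 and 264 CPM in control mice, and Itgax, which encodes the dendritic cell integrin CD11c, was at 0 counts in all libraries.

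The promoters of Ccl1, Cxcl2, Cxcl3 and Cxcl10 are printed because these 4 members had the highest levels. Each run is the 250 bases before the RefSeq start on GRCm38.p6, read 5′ to 3′ on the strand of the gene. That of Ccl1 is chr11:82179813-82180062 (minus strand), that of Cxcl2 is chr5:90903649-90903898 (plus strand), that of Cxcl3 is chr5:90785851-90786100 (plus strand) and that of Cxcl10 is chr5:92348890-92349139 (minus strand). Capitals mark matches on either strand to 3 motifs: GGG and CC with any 5 bases between them, which covers the usual NF-kB motif, TGACTCA, an AP-1 motif, and GAAA and GAAA with any 2 bases between them, an interferon response motif.
Ccl1: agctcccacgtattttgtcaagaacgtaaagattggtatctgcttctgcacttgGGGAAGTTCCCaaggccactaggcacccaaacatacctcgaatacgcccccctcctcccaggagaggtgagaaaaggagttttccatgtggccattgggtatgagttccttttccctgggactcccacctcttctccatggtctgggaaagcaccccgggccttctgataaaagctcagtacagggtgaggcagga
Cxcl2: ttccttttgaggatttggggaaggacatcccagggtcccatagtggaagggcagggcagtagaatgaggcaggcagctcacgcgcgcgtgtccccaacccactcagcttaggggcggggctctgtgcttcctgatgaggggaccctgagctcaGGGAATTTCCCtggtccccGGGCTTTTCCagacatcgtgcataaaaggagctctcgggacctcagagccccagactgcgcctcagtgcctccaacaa
Cxcl3: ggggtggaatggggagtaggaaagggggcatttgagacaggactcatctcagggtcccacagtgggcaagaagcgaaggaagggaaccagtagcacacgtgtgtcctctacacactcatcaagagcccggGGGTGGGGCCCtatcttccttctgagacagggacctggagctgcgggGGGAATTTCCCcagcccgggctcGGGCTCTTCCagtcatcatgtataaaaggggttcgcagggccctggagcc
Cxcl10: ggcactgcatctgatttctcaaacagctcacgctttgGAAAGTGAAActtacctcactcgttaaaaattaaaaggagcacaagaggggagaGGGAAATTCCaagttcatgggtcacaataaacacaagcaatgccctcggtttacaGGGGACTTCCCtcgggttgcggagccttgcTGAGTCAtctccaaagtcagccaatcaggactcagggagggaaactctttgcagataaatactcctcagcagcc
The NF-kB pattern was found in 5 of the 8 member promoters in the RefSeq table (Ccl1, Ccl22, Cxcl2, Cxcl3 and Cxcl10), and in 50.8% of all 32851 promoters of the same 300-base length, which also take in 50 bases after the start. Cxcl2 and Cxcl3 shared the match GGGAATTTCC, at 97 to 88 bases before the start in Cxcl2 and at 73 to 64 bases before it in Cxcl3. The AP-1 and interferon response patterns were found in 1 member promoter, that of Cxcl10, and in 5.2% and 3.44% of all promoters. Matches of the NF-kB pattern on opposite strands can overlap, as the 2 matches of Ccl1 do, and a match describes letters and not binding.

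Per kilobase of exon, which allows levels of different genes to be set side by side, Ccl1 stood first by mean level. It averaged 934 ± 335 CPM per kilobase (SD over all 4 libraries), followed by Cxcl2 at 65.0 ± 21.1, Cxcl10 at 34.0 ± 9.70, Cxcl3 at 22.1 ± 8.92, Ccl5 at 8.25 ± 8.81, Ccl3 at 5.39 ± 4.19, Ccl4 at 3.31 ± 1.47, Ccl17 at 0.887 ± 0.403 and Ccl22 at 0.0169 ± 0.0127. Xcl1 had 0 counts in all 4 libraries. The values of Ccl1 did not overlap with those of Cxcl2, and neither did those of Ccl4 with Ccl17 or of Ccl17 with Ccl22. The ranges of all other neighbours in this order overlapped. Cxcl2 still stood above Cxcl10 in 4 of 4 libraries, and Cxcl10 above Cxcl3 in 3 of 4. Ccl3 stood above Ccl4 in 2 of 4. These values depend on the exon set used, here the GENCODE basic set. It gives 613 bases for Ccl1 and 1016 for Cxcl3, against 2369 and 3498 with all annotated transcripts.

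**Figure D1:**
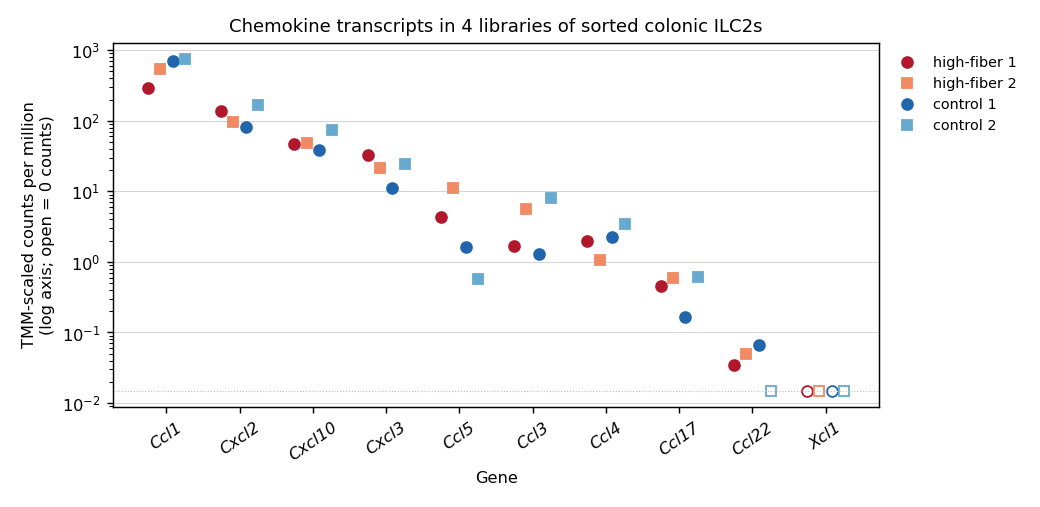
TMM-scaled CPM (log axis) of the 10 chemokine genes in high-fiber libraries 1 and 2 and control libraries 1 and 2. Each point is 1 mouse, and open symbols on the dotted line are libraries with 0 counts. For Ccl1 the high-fiber points lie below the control points, for Ccl5 they lie above them, and Xcl1 has no counts.

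The comparison asked whether diet changes chemokine transcripts in sorted ILC2s. Of the 10 members, 8 entered the test of 11841 genes, and Ccl22 and Xcl1 had too few counts. With edgeR's quasi-likelihood test and Benjamini-Hochberg adjustment over all genes, 0 members passed in either direction at an adjusted p of 0.05, where 0.0338% of all tested genes were called higher and 0.0% lower. DESeq2 called 0 members too, against 1.28% of its genes higher and 0.635% lower. Before adjustment, at p under 0.05 in edgeR, 1 member was higher (Ccl5) and 1 lower (Ccl1), against backgrounds of 4.7% and 4.1% of all tested genes. The median log2 fold change of the 8 tested members, high-fiber over control, was -0.15, with 3 positive and 5 negative, against a median of -0.016 over all tested genes. In bulk RNA, fewer cells that express a gene and less RNA per cell cannot be told apart.

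Ccl1 encodes the ligand of CCR8, a receptor of type 2 lymphocytes and regulatory T cells. It was at 293 and 546 CPM in high-fiber mice 1 and 2, against 707 and 745 CPM in control mice 1 and 2. Both high-fiber libraries lay below both control libraries, which was the case for 19.6% of all tested genes, and the 2 high-fiber mice differed from each other more than the 2 control mice did. Ccl1 averaged 420 ± 179 CPM in high-fiber mice and 726 ± 26.9 CPM in control mice (SD, n = 2 each). The log2 fold change was -0.79 ± 0.31 (SE), with a 95% interval of -1.55 to -0.041, and edgeR gave adjusted p = 0.534. Ccl1 (NCBI gene 20290) lies on chromosome 11 from 82176666 to 82179812 in GRCm38.p6, on the minus strand, and 0 runs of 50 bases of its transcripts were found in transcripts of another gene, as was the case for Ccl3, Ccl4, Ccl5, Ccl17 and Ccl22. The RefSeq locus of Ccl5 overlaps that of Gm32650, a symbol without counts here, though its GENCODE exons overlap no other gene.

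High-fiber library 1 held the lowest Ccl1 level. When it was left out, the log2 fold change came to -0.38 (edgeR adjusted p = 0.442). When the other high-fiber library was left out, it came to -1.31 (edgeR adjusted p = 0.587). Without control library 1 it was -0.83 (edgeR adjusted p = 0.998) and without control library 2 it was -0.76 (edgeR adjusted p = 0.872). The direction was the same in each of these 4 fits, while the size rested on which high-fiber mouse was used.

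Ccr8, the receptor gene of this ligand, was at 3429 and 3476 CPM in high-fiber mice and at 4534 and 3815 CPM in control mice. The 2 high-fiber libraries lay below both control libraries, at a log2 fold change of -0.27 ± 0.22 (SE, edgeR adjusted p = 0.802). Per kilobase of exon, Ccr8 stood above Ccl1 in every library, with a mean of 3246 against 934 CPM per kilobase. The sorted cells thus held transcripts of both ligand and receptor in all 4 mice. Mouse Ccl8, whose product also binds CCR8 in mice, was at 2.60 and 14.1 CPM in high-fiber mice and at 2.62 and 2.14 CPM in control mice, with overlapping groups.

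Cxcl2 and Cxcl3 encode ligands of CXCR2, the receptor through which neutrophils are attracted. Cxcl2 was at 137 and 97.6 CPM in high-fiber mice, against 81.1 and 168 CPM in control mice. The control mice were the lowest and the highest of the 4, so the groups overlapped. The log2 fold change of Cxcl2 was -0.072 ± 0.39 (SE), with a 95% interval of -1.0 to 0.85 and adjusted p = 0.978 by edgeR. Cxcl3 was at 33.2 and 21.2 CPM in high-fiber mice, against 11.2 and 24.2 CPM in control mice. Its groups also overlapped, since control library 2 lay between the high-fiber libraries, and its log2 fold change was 0.69 ± 0.51 (SE, edgeR adjusted p = 0.786), with a 95% interval of -0.53 to 1.92.

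These 2 genes lie in the same region of chromosome 5, Cxcl3 (NCBI gene 330122) from 90786101 to 90788093 and Cxcl2 (NCBI gene 20310) from 90903899 to 90905938. Of the 50-base runs in their annotated transcripts, 5.84% of those of Cxcl2 and 4.29% of those of Cxcl3 also occurred in another gene, mostly in each other. Some of their reads may thus not have been assigned uniquely, which was not tested. Their receptor gene Cxcr2 had 0 counts in every library. Cxcl1, which is not among the 10 but encodes a further CXCR2 ligand, was at 76.1 and 82.3 CPM in high-fiber mice and at 89.7 and 167 CPM in control mice. Both high-fiber libraries lay below both control libraries (log2 fold change -0.69 ± 0.34 SE, edgeR adjusted p = 0.654), and without control library 2, the highest of the 4, the log2 fold change was -0.18.

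Cxcl10 encodes an interferon-inducible ligand of CXCR3, a receptor of type 1 lymphocytes. It was at 46.7 and 48.1 CPM in high-fiber mice and at 39.0 and 73.0 CPM in control mice. The 2 high-fiber mice lay close together and between the 2 control mice. The log2 fold change was -0.22 ± 0.37 (SE), with a 95% interval of -1.11 to 0.67 and adjusted p = 0.921 by edgeR. Exons of Cxcl10 (NCBI gene 15945, chromosome 5 from 92346638 to 92348889) overlap those of Art3 on the other strand, and 3.59% of its 50-base runs occur in Art3 antisense. Art3 had 43 counts in high-fiber library 1 and 0 in the others, and how many reads of the shared stretch were lost or shared was not tested. The receptor gene Cxcr3 had 1 and 0 counts in high-fiber mice and 0 and 33 counts in control mice.

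Interferon-stimulated genes, which are induced together with Cxcl10 by interferon signalling, gave 0 of 9 tested genes in either direction over all genes by edgeR and 0 by DESeq2, from a list of 12. At an unadjusted p under 0.05, 1 was higher and 0 were lower, against 4.7% and 4.1% of all tested genes. Oasl2, an antiviral oligoadenylate synthetase-like gene, had the smallest p at 3.33 and 4.81 CPM in high-fiber mice and 0 and 0.762 CPM in control mice (edgeR adjusted p = 0.468). Gbp2, a guanylate-binding protein gene, followed at 52.7 and 55.4 CPM in high-fiber mice and 88.6 and 74.4 CPM in control mice (adjusted p = 0.601), and then Rsad2, which encodes viperin, at 0 and 5.50 CPM in high-fiber mice and 9.93 and 5.05 CPM in control mice (adjusted p = 0.742). Of the 9 tested, 1 had a positive log2 fold change, Oasl2, and 8 a negative one, and the list median was -0.52. Oasl2 met the cutoff of the low-count filter in 2 high-fiber libraries and 1 control library. The control libraries alone would not have let it into the test.

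Ccl3, Ccl4 and Ccl5 encode chemokines that attract T cells, natural killer cells and monocytes, and Ccl3 and Ccl5 bind CCR1. Ccl5 was at 4.36 and 11 CPM in high-fiber mice (126 and 224 counts), against 1.62 and 0.572 CPM in control mice (49 and 12 counts). Both high-fiber libraries lay above both control libraries, as was the case for 18.5% of all tested genes, and mice of the same diet also lay well apart. Ccl5 averaged 7.68 ± 4.69 CPM in high-fiber mice and 1.10 ± 0.743 CPM in control mice (SD, n = 2 each). The log2 fold change was 2.61 ± 0.97 (SE), with a 95% interval of 0.31 to 4.91 and adjusted p = 0.499 by edgeR and 0.247 by DESeq2. The summed counts gave a ratio of 5.96, with a 95% binomial interval of 4.53 to 7.96 that covers counting error only. The log2 fold change was 1.87 without high-fiber library 2 and 3.67 without control library 1, and after leaving out either of these or control library 2 the unadjusted edgeR p was no longer under 0.05.

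Natural killer cells and T cells are abundant sources of Ccl5, so their markers are given beside it. A list of 8 genes of natural killer cells and ILC1s summed to 24.8 and 9.67 CPM in high-fiber mice and to 44.1 and 28.0 CPM in control mice. Of its 4 tested genes, 1 had a positive and 3 a negative log2 fold change. Eomes, a lineage factor gene of natural killer cells, was at 0 counts in every library. Prf1 had 634 and 0 counts in high-fiber mice and 502 and 456 in control mice. Tbx21 had 38 and 0 counts in high-fiber mice and 498 and 48 in control mice. Gzmb, the positive one, had 1 and 196 counts in high-fiber mice and 0 and 45 in control mice. The T cell list of 11 genes, some of which ILC2s also transcribe, summed to 911 and 1006 CPM in high-fiber mice and to 934 and 1078 CPM in control mice. Cd3e was at 1.21 and 5.30 CPM in high-fiber mice and at 5.79 and 13.2 CPM in control mice. Cd3g, at 244 and 289 CPM in high-fiber mice and 143 and 171 CPM in control mice, was the 1 gene of that list higher at an unadjusted p under 0.05 (edgeR adjusted p = 0.447). The thymocyte selection gene Themis was the 1 lower gene, at 1.8 and 2.11 CPM in high-fiber mice and 12.0 and 15.9 CPM in control mice (edgeR adjusted p = 0.447), and was called by DESeq2 (adjusted p = 0.00967). Of the 7 tested T cell genes, 1 had a positive and 6 a negative log2 fold change. Of a list of 6 B and plasma cell genes 4 were tested, and 0 passed by edgeR or DESeq2. In edgeR 3 were higher at an unadjusted p under 0.05, against 4.7% of all tested genes. The list had summed levels of 302 and 1169 CPM in high-fiber mice and 132 and 11.6 CPM in control mice. The part of such cells in the Ccl5 value was not tested.

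Ccl3 was at 1.66 and 5.59 CPM in high-fiber mice (48 and 114 counts) and at 1.29 and 7.96 CPM in control mice (39 and 167 counts). In each diet the library numbered 2 held more Ccl3 than the library numbered 1, and the groups overlapped. Ccl4 was at 1.97 and 1.08 CPM in high-fiber mice (57 and 22 counts) and at 2.25 and 3.43 CPM in control mice (68 and 72 counts). Both high-fiber libraries lay below both control libraries for Ccl4, at a log2 fold change of -0.78 ± 0.83 (SE). Its 95% interval was -2.75 to 1.19 and its adjusted p by edgeR 0.863, while Ccl3 had a log2 fold change of -0.31 ± 1.08 (SE), an interval of -2.90 to 2.29 and an adjusted p of 0.966. The RefSeq loci of Ccl3 (chromosome 11 from 83647843 to 83649378) and Ccl4 (83648624 to 83664683) overlap on opposite strands, though their GENCODE exons do not, and no source used here gives the strand setting of the counting, so reads could be shared between them.

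Ccr1, a receptor gene of Ccl3 and Ccl5, was at 3.88 and 10.4 CPM in high-fiber mice and at 2.95 and 7.10 CPM in control mice, with overlapping groups. Ccr3 held 1 count in control library 1 and 0 in the others, and the decoy receptor gene Ackr2 had 0 counts throughout.

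Ccl17 and Ccl22 encode the ligands of CCR4, a receptor of type 2 helper T cells and regulatory T cells, and are best known as products of dendritic cells. Ccl17 was at 0.450 and 0.589 CPM in high-fiber mice (13 and 12 counts) and at 0.166 and 0.619 CPM in control mice (5 and 13 counts). Its groups overlapped, and its log2 fold change of 0.52 ± 0.99 (SE) had a 95% interval of -1.68 to 2.73 and an adjusted p of 0.931 by edgeR. Ccl22 had 1 and 1 counts in high-fiber mice and 2 and 0 counts in control mice, which is under the 3 counts that a library at 0 allows, so no fold is given. Ccr4 itself was at 210 and 90.9 CPM in high-fiber mice and at 103 and 68.5 CPM in control mice. Its high-fiber library 1 stood above the other 3, the groups overlapped, and its log2 fold change of 0.81 ± 0.43 (SE) had an adjusted p of 0.677 by edgeR, and was 0.097 without high-fiber library 1.

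Xcl1 encodes lymphotactin, a C chemokine of activated natural killer cells and CD8 T cells that attracts cross-presenting dendritic cells. It had 0 counts in each of the 4 libraries, and at these depths a level of up to 0.104 and 0.147 CPM in high-fiber libraries 1 and 2 and up to 0.0993 and 0.143 CPM in control libraries 1 and 2 would be allowed by 3 counts. Its receptor gene Xcr1 was nevertheless counted in every library, at 31.5 and 37.5 CPM in high-fiber mice and at 60.8 and 28.3 CPM in control mice, with overlapping groups (edgeR adjusted p = 0.864). Flt3, a further dendritic cell gene, had 33 counts in control library 2 and 0 in the others. Zbtb46, a transcription factor gene of conventional dendritic cells, was at 69.8 and 62.1 CPM in high-fiber mice and at 95 and 74.2 CPM in control mice, with both high-fiber libraries below both control libraries (edgeR adjusted p = 0.787). Whether the Xcr1 counts came from ILC2s or from other cells in the sort was not tested.

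**Figure D2:**
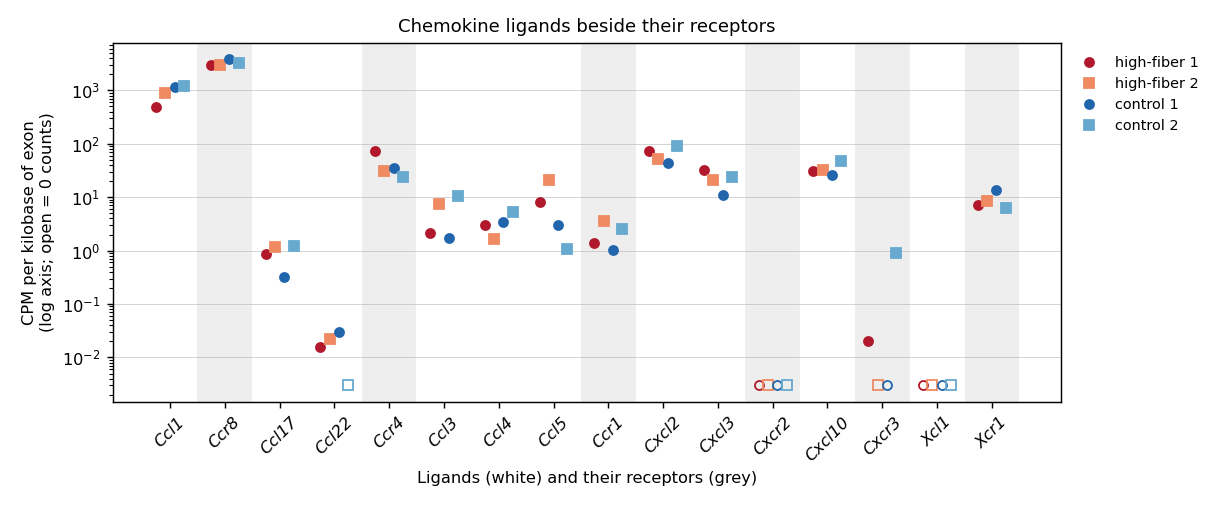
CPM per kilobase of exon (log axis) for the chemokine ligands (white columns) and their receptor genes (grey columns) in each of the 4 libraries, with open symbols for 0 counts. Ccl1 and Ccr8 are the pair with high levels of both, whereas Cxcr2 had no counts beside counted Cxcl2 and Cxcl3, and Xcl1 had none beside counted Xcr1.

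**Figure D3:**
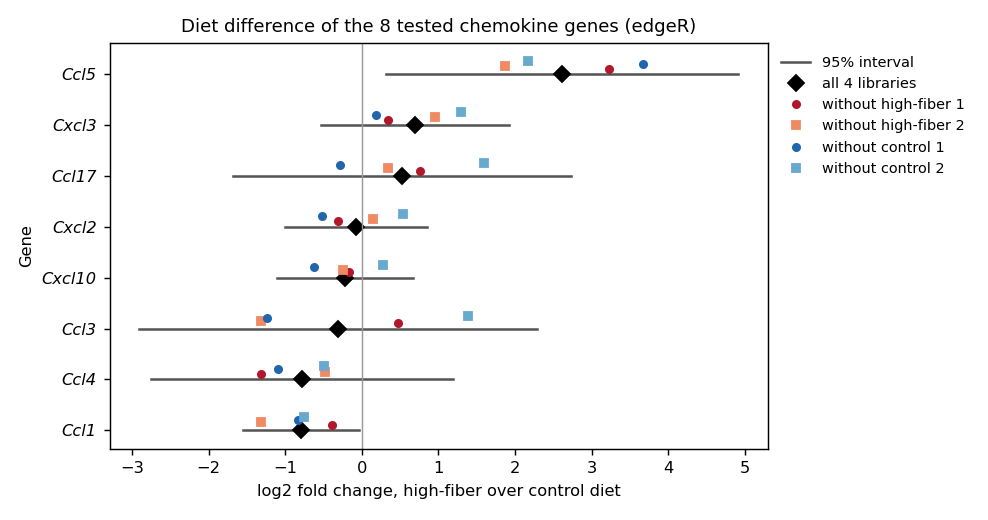
Log2 fold change, high-fiber over control diet, of the 8 tested members with its 95% interval from edgeR (diamonds and lines), and the same value with each library left out (coloured points). The interval lies above 0 for Ccl5 and below 0 for Ccl1 before adjustment, and crosses 0 for the other 6. Leaving out a library turns the sign of Ccl3, Ccl17, Cxcl2 and Cxcl10.

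The wider family held 27 other chemokine ligand genes, of which 14 entered the test and 8 had 0 counts in every library (Ccl11, Ccl19, Ccl20, Ccl26, Ccl28, Cxcl5, Cxcl9 and Cxcl15). With edgeR 0 passed in either direction over all genes. At an unadjusted p under 0.05, 3 were higher, Ccl24, Ccl9 and Cxcl11, and 0 lower, against 4.7% and 4.1% of all tested genes. DESeq2 called 1 of them, Ccl24, higher, against 1.28% of its genes. Ccl24 encodes eotaxin-2, a CCR3 ligand that attracts eosinophils. It was at 6.65 and 16.6 CPM in high-fiber mice (192 and 338 counts), against 0.464 and 0.0476 CPM in control mice (14 and 1 counts). The groups did not overlap, with a log2 fold change of 5.22 ± 1.21 (SE), adjusted p = 0.447 by edgeR and adjusted p = 6.39e-04 by DESeq2. The pooled counts gave a ratio of 36.7, with a 95% binomial interval of 22.1 to 66.1 that covers counting error only. The DESeq2 call was not repeated by edgeR or limma-voom, and in edgeR the log2 fold change was 4.48 to 7.73 with 1 library left out.

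Ccl9, which encodes a CCR1 ligand, had 36 and 63 counts in high-fiber mice and 1 and 3 counts in control mice, a ratio of 25.7 with a 95% binomial interval of 9.74 to 96.3 (edgeR adjusted p = 0.478). Cxcl11, which encodes a CXCR3 ligand, had 18 and 40 counts in high-fiber mice and 0 and 0 in control mice. With 3 counts assumed over the control group, its ratio was at least 20.1 (edgeR adjusted p = 0.491). Both ratios pool the mice of a diet and cover counting error only. The edgeR 95% intervals of the log2 fold change were 0.78 to 8.44 for Ccl9 and 1.21 to 14.6 for Cxcl11. Ccl9 and Cxcl11 passed the filter on low counts through the high-fiber libraries alone and were named after their values were seen. Ccl24 met its cutoff in 2 high-fiber libraries and 1 control library, so the control libraries alone would not have let it into the test. Of the other ligand genes with a mean of at least 5 CPM, Ccl7, a ligand of the monocyte receptor CCR2, was at 9.46 and 33.2 CPM in high-fiber mice and at 7.28 and 20.4 CPM in control mice. Cxcl16, the CXCR6 ligand, was at 6.37 and 22.8 CPM in high-fiber mice and at 12.5 and 11.3 CPM in control mice, and Cx3cl1, the CX3CR1 ligand, at 12.4 and 1.13 CPM in high-fiber mice and at 6.82 and 0.429 CPM in control mice. All 3 had overlapping groups.

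Macrophages are a known source of Ccl24, Ccl7 and Ccl8, and their markers stood beside these genes as follows. Of the macrophage, monocyte and dendritic cell list 11 of 15 genes were tested, 0 passed by edgeR or DESeq2 and 0 lay at an unadjusted p under 0.05. The lysozyme gene Lyz2 was at 72.3 and 106 CPM in high-fiber mice and at 22.3 and 75.3 CPM in control mice. The complement gene C1qb was at 13.7 and 21.5 CPM in high-fiber mice and at 10.5 and 14.3 CPM in control mice. The groups overlapped for both genes. The mannose receptor gene Mrc1, which did not enter the test, lay the other way. It had 0 and 0 counts in high-fiber mice and 74 and 3 counts in control mice. The receptor gene Csf1r had 80 and 0 counts in high-fiber mice and 0 and 100 counts in control mice, with overlapping groups. Of the 11 tested, 7 had a positive and 4 a negative log2 fold change. The part of macrophages, or of the B and plasma cells summed above, in the Ccl24 value was not tested.

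**Figure D4:**
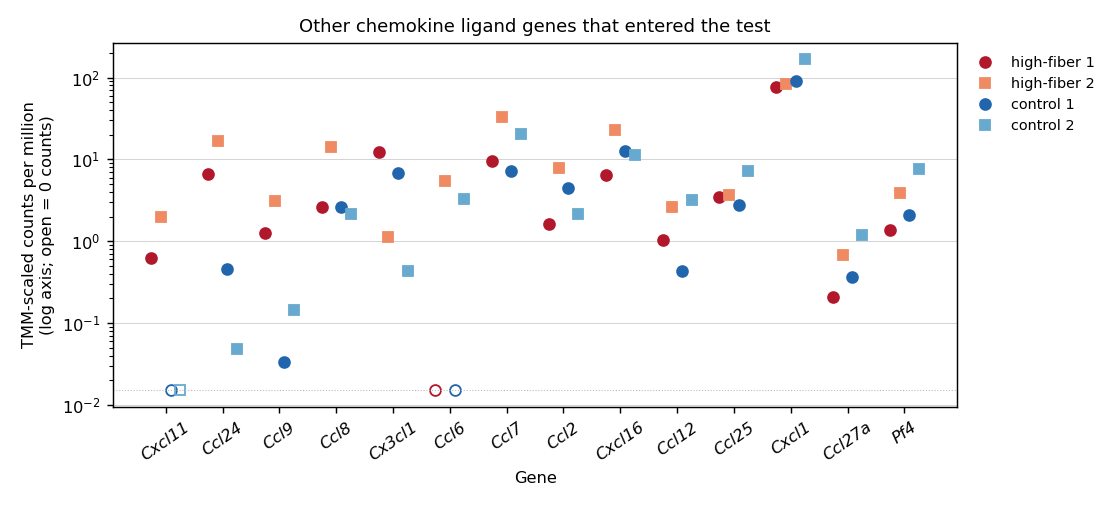
TMM-scaled CPM (log axis) of the 14 other chemokine ligand genes that entered the test, ordered by log2 fold change from the highest, with open symbols for 0 counts. For Cxcl11, Ccl24 and Ccl9 the high-fiber points lie above all control points, and for Cxcl1 they lie below them.

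Chemokine genes are induced through NF-kB and NFAT downstream of activating receptors. Of 16 tested regulators and targets of these factors 0 passed by edgeR over all genes, and DESeq2 called 1 lower, against 0.635% of its genes. Before adjustment, 1 had p under 0.05 in edgeR on the higher side and 3 on the lower, against 4.7% and 4.1% of all tested genes. The list median was -0.17. Nfkbid, which encodes a nuclear IkB protein, was at 1025 and 676 CPM in high-fiber mice and at 2443 and 1957 CPM in control mice (log2 fold change -1.37 ± 0.28 SE, edgeR adjusted p = 0.444, DESeq2 adjusted p = 3.33e-04). Il2, the NFAT-dependent T cell growth factor gene, was at 56.6 and 71.0 CPM in high-fiber mice and at 141 and 118 CPM in control mice (-1.03 ± 0.26 SE, edgeR adjusted p = 0.447), and Nfkbiz at 1347 and 848 CPM in high-fiber mice and at 2312 and 1833 CPM in control mice (-0.92 ± 0.29 SE, edgeR adjusted p = 0.456). These 3 did not overlap between diets and had lower values in both high-fiber libraries, as Ccl1 did. Of the 16, 4 lay lower without overlap, against 19.6% of all tested genes, and 2 lay higher, against 18.5%. The 2 higher ones were the NF-kB subunit genes Rel (0.63 ± 0.26 SE, edgeR adjusted p = 0.557) and Nfkb1 (0.32 ± 0.23 SE, edgeR adjusted p = 0.779). In all, 6 log2 fold changes were positive and 10 negative.

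Immediate early genes, which receptor signalling and cell isolation both induce, were set beside Ccl1 as well. Of 12 tested, 0 passed by edgeR over all genes, and DESeq2 called 7 lower, against 0.635% of its genes. The list median was -0.98. Before adjustment, 0 had p under 0.05 in edgeR on the higher side and 8 on the lower, against 4.7% and 4.1% of all tested genes. Egr1 was at 189 and 134 CPM in high-fiber mice and at 599 and 787 CPM in control mice (-2.10 ± 0.27 SE, edgeR adjusted p = 0.212). Log2 fold changes of Nr4a2 and Egr2, the next by p, were -1.93 and -2.18. Whether these genes and Ccl1 share a cause was not tested.

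The genes whose profile over the 4 libraries lay nearest to that of Ccl1, by the Euclidean distance of centred log2(CPM + 1) among 8896 genes with a mean of at least 5 CPM, were Hook1 (0.047), Tmem106a (0.080) and Tktl1 (0.11). Hook1 was at 11.1 and 22.2 CPM in high-fiber mice and at 27.8 and 29.6 CPM in control mice. Nearest to Cxcl2 were Sh3bp5 (0.066), Pigu (0.074) and Pcid2 (0.076), with Sh3bp5 at 18.8 and 12.8 CPM in high-fiber mice and at 10.1 and 22.4 CPM in control mice. With 4 libraries and this many genes, some genes will lie near any profile.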

How the data were processed

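A SMARTer ultra-low-input kit was used on the sorted cells, per the labels' protocols. The submitters' processing notes list CASAVA 1.8.2, STAR 2.3.0 and mm10. What counted the reads, and with which strand setting, is not given in the sources used here. The deposited file holds raw read counts per NCBI gene identifier, not normalized, and 0 value columns lacked a sample. Of 27179 identifiers 25275 received a symbol from RefSeq's GRCm38.p6 gene table, and 15425 had any count.

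Diets were compared with edgeR 4.0.16 (R 4.3.3), using filterByExpr, TMM scaling, an intercept and the diet, and glmQLFit (legacy=FALSE) with glmQLFTest, with p adjusted by Benjamini-Hochberg over 11841 genes. With 2 residual degrees of freedom the common biological coefficient of variation was 0.607, so moderate differences can be missed. Standard errors were derived from each gene's F statistic. Floors of 3 counts and count ratios cover counting error only. Exon lengths came from GENCODE M21 (basic set), shared 50-base runs from its transcripts, and promoters from RefSeq. DESeq2 1.42.0 and limma-voom (limma 3.58.1) were alternatives.

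The members, lists, tests and alternatives were chosen with earlier results of these data known. Named genes were the members, other ligands at a mean of 5 CPM or more, the receptors, the 3 genes of smallest p per pathway list and the 3 nearest profiles of the 2 members with the highest mean CPM. A further receptor gene of the written design is not reported here. Macrophage, T cell and other genes named beyond this were chosen after their values were seen. Lists of mast cells (5 of 7 genes at 0 in every library), B and plasma cells and epithelial or stromal cells were also summed. The epithelial and stromal list came to 88.6 and 78.8 CPM in high-fiber mice and to 69.3 and 69.7 CPM in control mice, and the mast cell list to 1.11 and 0 CPM in high-fiber mice and to 2.45 and 1.95 CPM in control mice.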

Additional observations from a re-analysis of the deposited data

How the results depend on the processing

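The count of 0 members passing held under all 15 alternatives, including DESeq2, limma-voom and an adjusted p of 0.1, and members at an unadjusted p under 0.05 numbered 0 to 2. Over all tested genes 4 passed, against 0 with no filter on low counts, 9 with a filter of 5 CPM in 2 libraries, 238 with DESeq2, 0 with limma-voom, 0 with the older quasi-likelihood fit, and 0 to 1 with 1 library left out. With the replicate number as a block 0 genes passed. In the labels the same-numbered libraries share only a number. Deviations of high-fiber library 1 and control library 1 from their group means correlated at 0.041 over genes. Total counts followed the number, at 29263068 and 30406730 for high-fiber and control library 1 and 20750263 and 20253987 for high-fiber and control library 2. Whether same-numbered libraries share a batch was not tested. The signs of Ccl1, Ccl4, Ccl5 and Cxcl3 were kept throughout, with ranges of -1.31 to -0.38, -1.32 to -0.48, 1.87 to 3.67 and 0.19 to 1.29. The sign of Ccl3 turned with limma-voom (0.012), without high-fiber library 1 (0.47) and without control library 2 (1.38), and that of Cxcl2 with limma-voom (0.040), without high-fiber library 2 (0.14) and without control library 2 (0.53). Ccl17 turned without control library 1 (-0.28) and Cxcl10 without control library 2 (0.28). With 1 library left out, values ran from -0.28 to 1.59 for Ccl17, -0.52 to 0.53 for Cxcl2 and -0.62 to 0.28 for Cxcl10. The cause was not tested. With 2 mice per diet and few counts for Ccl3, Ccl4, Ccl5 and Ccl17, intervals are wide. The alternatives for genes other than the 10 were added after seeing the data.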

Other observations

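Counts of related chemokines were also compared within each library, where library scaling cancels. The ratio of Cxcl2 to Cxcl3 counts was 4.12 and 4.60 in high-fiber libraries 1 and 2, against 7.25 and 6.96 in control libraries 1 and 2. It averaged 4.36 ± 0.34 in high-fiber mice and 7.10 ± 0.20 in control mice (SD, n = 2 each), with groups that did not overlap although the level of each gene alone did overlap. The ratio of Cxcl2 to Cxcl1 was 1.8 and 1.18 in high-fiber mice, against 0.904 and 1.00 in control mice. For both ratios a two-sided exact permutation test gave p = 0.333, the smallest that 2 against 2 mice allow (adjusted p = 0.667 over the 5 ratios computed). The ratio of Ccl1 to Ccr8 counts was 0.0855 and 0.157 in high-fiber mice and 0.156 and 0.195 in control mice, and that of Ccl3 to Ccl4 was 0.842 and 5.18 in high-fiber mice and 0.574 and 2.32 in control mice, with overlapping groups in both. The ratio of Ccl1 to Cxcl2 overlapped as well, at 2.14 and 5.59 in high-fiber mice and at 8.71 and 4.43 in control mice. These ratios were chosen after the values were seen.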
